A study of Mus musculus with 8 samples.

Results

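Pink1 and 6 other genes of mitochondrial quality control (Park7, Lrrk2, Fbxo7, Htra2, Bnip3 and Bnip3l) were followed across the cerebella of mice of the Inbred Long Sleep (ILS) and Inbred Short Sleep (ISS) strains. The members were all probe sets, on the Affymetrix 430A and 430B arrays, whose only gene symbol in the platform annotation was one of these names. This gave 9 probe sets, 7 on 430A and 2 on 430B, for 6 of the 7 genes, out of 18194 genes with such a probe set. Bnip3l had no member probe set, since its 3 probe sets on 430A carry a second symbol as well, and they were not analysed here.

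The study took cerebellar RNA from 4 male, alcohol-naive mice, 2 ILS (mice 48 and 51) and 2 ISS (mice 55 and 56), and hybridised the RNA of each mouse to 1 array of each chip. Selective breeding for how long mice sleep after a dose of ethanol gave rise to both strains, which were compared here at baseline. The labels name no transgene and no drug, and they give no age. Of markers of the cerebellar cell types, all 6 Purkinje cell markers and all 5 granule cell markers with a probe set on 430A lay above the median of at least 1 array.

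PINK1 is a protein kinase that healthy mitochondria import and degrade. On damaged mitochondria it stays at the outer membrane, where it phosphorylates ubiquitin, and autophagy then removes the organelle. BNIP3 and BNIP3L (NIX) are receptors of the outer membrane that recruit autophagosomes directly. DJ-1 (Park7), LRRK2, FBXO7 and PINK1 are each encoded by genes in which human mutations cause inherited parkinsonism, and HTRA2 is a protease of the intermembrane space whose loss in mnd2 mice leads to neurodegeneration.

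Each value below is a signal intensity, scaled so that the 2% trimmed mean of every array is 500. A log2 fold change is the mean log2 intensity in ILS minus that in ISS, so that a positive value is a higher signal in ILS. The genes were proposed with the strain differences of these arrays known. Their differences are therefore described with errors and no p-values, and a statement that a probe set passed refers to the test across the whole chip (limma, Benjamini-Hochberg adjusted p under 0.05).

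Pink1 had a higher signal in ILS at both of its probe sets. At 1451148_at on 430A it stood at 2910.2 and 2763 in the ILS mice, against 1800 and 1882 in the ISS mice. The strains did not overlap, and the 2 mice of each strain lay close together. The means were 2837 ± 104 in ILS and 1841 ± 58 in ISS (SD, n = 2 each), a 1.54-fold difference. The log2 fold change was 0.62 ± 0.11 (SE), with a 95% interval from 0.37 to 0.88.

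At 1441937_s_at on 430B the same mice gave a wider gap. Pink1 had intensities of 6052 and 5218 in the ILS mice, against 1389 and 1211 in the ISS mice. Here too the strains did not overlap, and the lower ILS mouse was far above the higher ISS mouse. The means were 5635 ± 590 in ILS and 1300.3 ± 126 in ISS (SD, n = 2 each), a 4.33-fold difference. The log2 fold change was 2.11 ± 0.15 (SE), with a 95% interval from 1.78 to 2.45. By size it ranked 18 among the 11256 tested probe sets of 430B, while the Pink1 probe set of 430A ranked 747 among 11313.

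The strain differences at the Pink1 probe sets were thus of one sign and of unequal size, and their 95% intervals did not meet. The log2 fold change on 430B exceeded that on 430A by 1.49. For comparison, 100 probe sets that are present on both chips had log2 fold changes that differed between the chips by a median of 0.13 and by at most 0.77. Those are the same probe sets on both chips, whereas the Pink1 probe sets are different ones. The comparison therefore does not show how far different probe sets of 1 gene can lie apart. At different probe sets, Car8 stood at 0.04 on 430A and 1.51 on 430B, while Aqp4 stood at -0.09 on both. The ending _s_at marks, in Affymetrix's naming, a probe set whose probes match more than 1 transcript, and which transcripts these are was not analysed here. The probe set on 430A has no such mark.

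**Figure D1:**
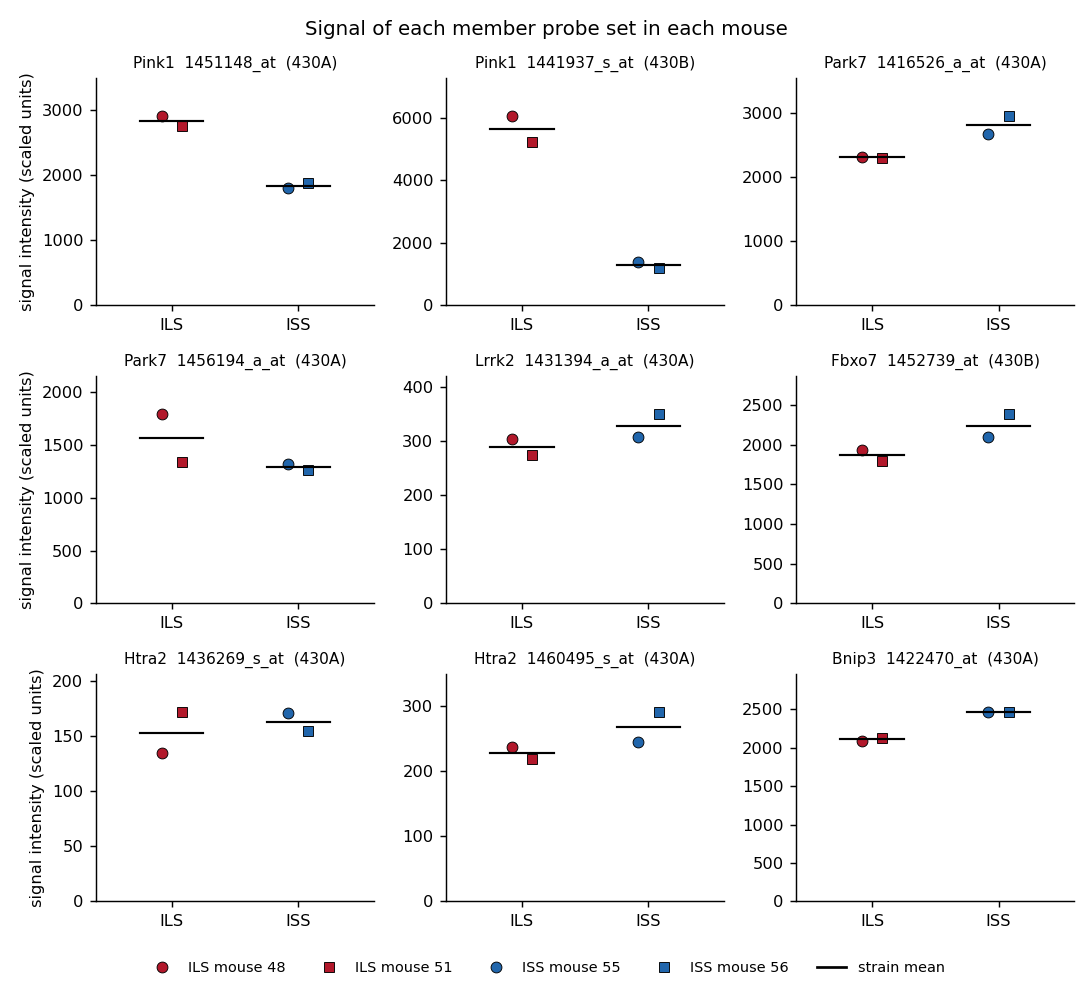
Signal intensity (scaled units, axes from 0) of the 9 member probe sets in each mouse, with ILS left of ISS, circles and squares for the single mice and a line for the strain mean. The Pink1 panels show the ILS mice at 2763 to 2910.2 against 1800 to 1882 in ISS on 430A, and at 5218 to 6052 against 1211 to 1389 on 430B, while the other panels have smaller gaps.

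Of the other genes tied to inherited parkinsonism, Park7 was measured by 2 probe sets on 430A, and its probe sets pointed in opposite directions. DJ-1, its product, is a redox-sensitive protein that protects cells from oxidative stress. At 1416526_a_at Park7 had intensities of 2316 and 2305 in the ILS mice, against 2670.5 and 2951 in the ISS mice. Both ILS mice lay below both ISS mice, and the log2 fold change was -0.28 ± 0.11 (SE), with a 95% interval from -0.54 to -0.02. At 1456194_a_at Park7 had 1792 and 1337 in the ILS mice, against 1324 and 1262 in the ISS mice. There ILS mouse 51 was only slightly above ISS mouse 55, ILS mouse 48 stood apart, and the log2 fold change was 0.26 ± 0.16 (interval from -0.11 to 0.63). It was 0.05 without ILS mouse 48 and 0.47 without ILS mouse 51. Neither probe set passed, and the ending _a_at marks probe sets that match several transcripts of 1 gene.

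Lrrk2 encodes a large kinase with a GTPase domain that phosphorylates Rab proteins. Its probe set 1431394_a_at on 430A had intensities of 304 and 274 in the ILS mice, against 307 and 349 in the ISS mice. The higher ILS mouse almost touched the lower ISS mouse, and the log2 fold change was -0.18 ± 0.17 (SE), with an interval from -0.57 to 0.21.

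Fbxo7 encodes an F-box protein, the substrate-binding part of a ubiquitin ligase, that takes part in mitophagy. Its only probe set, 1452739_at on 430B, had intensities of 1929 and 1801 in the ILS mice, against 2099 and 2384 in the ISS mice. All values of ILS lay below those of ISS, with a log2 fold change of -0.26 ± 0.15 (SE) and an interval from -0.60 to 0.07.

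Htra2 was the dimmest of the genes. At 1460495_s_at on 430A it had intensities of 238 and 218 in the ILS mice, each below the median of its array, against 245 and 291 in the ISS mice. With the ILS arrays set at their medians, the measured signal in ISS was at least 1.15-fold higher. The log2 fold change was -0.23 ± 0.19 (SE), with an interval from -0.66 to 0.20 that held both signs. At 1436269_s_at Htra2 had 134 and 171 in the ILS mice, against 171 and 154 in the ISS mice. The strains overlapped, all 4 values lay below their array medians, and this probe set was left out of the test as too dim.

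Bnip3, whose transcription rises in low oxygen, gave the tightest replicates. At 1422470_at on 430A it had intensities of 2088 and 2129 in the ILS mice, against 2463 and 2459 in the ISS mice. Both ILS mice were lower by a similar amount. The log2 fold change was -0.22 ± 0.11 (SE), with an interval from -0.47 to 0.03, and it did not pass.

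Apart from Pink1, 6 of 7 member probe sets had a lower mean signal in ILS, with a median log2 fold change of -0.22, and none of the tested ones passed. Over all tested probe sets the median was -0.01 on 430A, where 51.7% were lower in ILS, and 0.00 on 430B, where 50.1% were lower. In all, 1 of 6 tested member probe sets passed on 430A, where 2.93% of all tested probe sets passed, and 1 of 2 on 430B, where 0.48% passed. Both were those of Pink1, higher in ILS, as were 1.61% and 0.195% of all tested probe sets on the 2 chips, and no member passed as lower in ILS, against 1.33% and 0.284%. The strains did not overlap at 6 of 6 tested member probe sets on 430A and at 2 of 2 on 430B, against 54.3% and 38.9% of all tested probe sets. The genes were chosen on this comparison, so nothing is read from these counts.

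**Figure D2:**
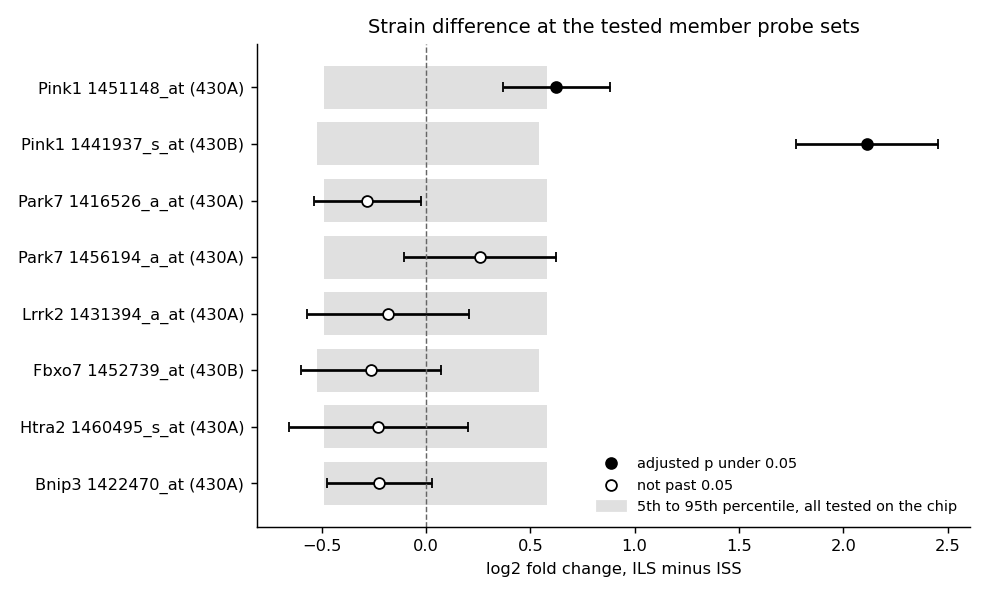
Log2 fold change (ILS minus ISS, horizontal axis) of the 8 tested member probe sets, with 95% intervals, filled where the adjusted p was under 0.05, and grey bands from the 5th to the 95th percentile of all tested probe sets of the chip. Pink1 on 430B, at 2.11, lies far outside its band, Pink1 on 430A, at 0.62, lies just outside its own, and the other 6 points lie inside theirs.

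The Pink1 call differed in firmness between the chips. On 430B it held in 13 of 14 alternative settings, with log2 fold changes from 2.01 to 2.22, and was lost when the variance was not allowed to depend on intensity. On 430A it held in 7 of 13, with log2 fold changes from 0.47 to 0.68, and was lost when dim probe sets were kept in, under that variance model, and whenever 1 mouse was left out: the log2 fold change was 0.59 without ILS mouse 48, 0.66 without ILS mouse 51, 0.59 without ISS mouse 55 and 0.66 without ISS mouse 56.

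**Figure D3:**
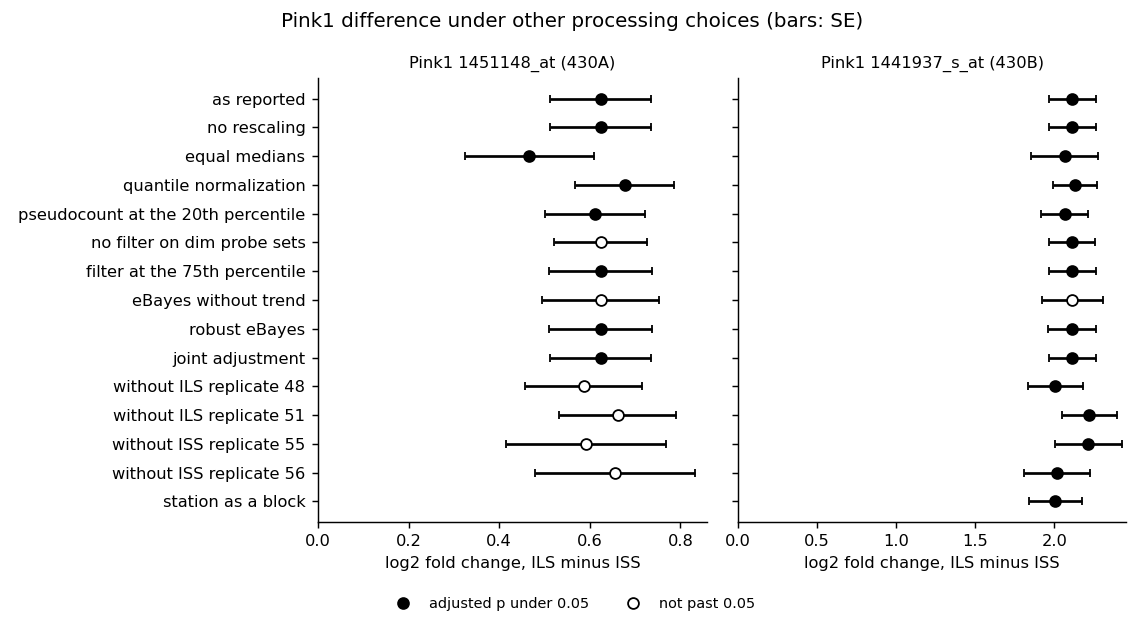
Log2 fold change of the Pink1 probe sets (ILS minus ISS, horizontal axes from 0, with different ranges, bars for the SE) as reported and under each other processing choice, filled where the adjusted p was under 0.05. Every value is above 0, from 0.47 to 0.68 on 430A and from 2.01 to 2.22 on 430B, and the open points are mostly on 430A.

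Strain went along with features of the array runs. On 430A both ILS arrays ran on fluidics station 2 and both ISS arrays on station 1, so station and strain cannot be told apart there. On 430B ILS mouse 48 alone ran on station 1, and with station as a block, which is the same as the comparison within station 2, Pink1 had a log2 fold change of 2.01 and Fbxo7 of -0.31. Scan order also separated the strains, with ILS scanned first on 430A and ISS first on 430B. The 18S ribosomal RNA control (its 3' probe set) stood at 538 and 801 in ILS against 147 and 142 in ISS on 430A. On 430B it stood at 2189 and 2585 in ILS against 545 and 712 in ISS. The 3' to 5' ratio of Gapdh, a sign of RNA quality, ranged from 0.743 to 0.855 in ILS and was 0.783 in both ISS mice on 430A, and ranged from 0.755 to 0.81 in ILS and from 0.781 to 0.809 in ISS on 430B. The part of 18S signal in the Pink1 difference was not tested.

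Markers of some cell types differed between the strains as well. On 430A all 7 microglia markers were higher in ILS, with summed intensities of 6055 to 6343 in ILS against 3935 to 4823 in ISS, and 3 of them passed. Of 6 Purkinje cell markers, 1 was higher in ILS, with sums of 24460.3 to 27034 in ILS against 28625 to 35054 in ISS, and 1 passed as lower. The sums of 7 Bergmann glia and astrocyte markers were 11376 to 12350 in ILS against 13514 to 13562 in ISS. The 3 blood markers summed to 281 to 343 in ILS against 388 to 397 in ISS. The sums of granule cell, oligodendrocyte, endothelial and choroid plexus or meningeal markers were 18153 to 22538, 29313 to 30656, 2012 to 2334 and 12913 to 13568 in ILS, against 21080 to 23627, 27111 to 29225, 1827 to 2192 and 12028 to 14461 in ISS. Cldn11 of oligodendrocytes and Dcn of the meninges passed as higher in ILS on 430A, with log2 fold changes of 0.78 and 0.65. No marker of glia, granule cells, endothelium or blood passed there, where glia means Bergmann glia and astrocytes. No marker was at 0, and Cdh5 of endothelium, Lum and Col1a1 of the meninges, and Hba-a1 and Slc4a1 of blood lay below the medians of all 4 arrays. On 430B, Car8 of Purkinje cells stood at 2969.8 and 2013 in ILS against 869 and 845 in ISS, and passed as higher. On 430A Car8 stood at 5449 and 4370 in ILS against 4428 and 5106 in ISS, and the strains overlapped. The 2 Purkinje markers on 430B summed to 3554 to 5438 in ILS against 3337 to 4834 in ISS. Slc17a7 of granule cells stood at 3313 and 2640.3 in ILS against 5857 and 7215 in ISS, and passed as lower. The granule cell markers Cbln3 and Zic1 had log2 fold changes of 0.09 and -0.09 there, and the strains overlapped at both. The 3 granule cell markers on 430B summed to 23508 to 27086 in ILS against 26018 to 31835 in ISS. Gfap of astrocytes stood at 219 and 287 in ILS against 1571 and 1069.8 in ISS, and passed as lower, with sums of the 4 glial markers of 14474 to 18799.5 in ILS against 17939 to 20523 in ISS. The 2 choroid plexus or meningeal markers summed to 32346.5 to 36929.9 in ILS against 28882 to 30985 in ISS. In whole tissue, fewer cells of a type and less RNA per cell cannot be told apart, and the part of cell makeup in the member differences was not tested.

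The nearest genes on the chromosome did not pass the test that Pink1 passed, which with so few mice does not show that they lack a difference. In gene order taken from RefSeq (GRCm38.p6), Pink1 lies on chromosome 4 between Ddost, Kif17 and Sh2d5 on one side and Mul1, Camk2n1 and Otud3 on the other, counting only genes with a tested probe set. Ddost, a subunit of the oligosaccharyltransferase and the closest on its side, had intensities of 1669 and 1635 in the ILS mice, against 1798 and 1837 in the ISS mice (log2 fold change -0.14 ± 0.12, SE). Mul1, the closest on the other side, encodes a ubiquitin ligase of the outer mitochondrial membrane that acts alongside the PINK1 pathway. It had 373 and 441 in the ILS mice, against 375 and 412 in the ISS mice, and the strains overlapped (0.05 ± 0.16, SE).

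Further out, the kinesin gene Kif17 stood at 0.72 ± 0.34 on the log2 scale (SE, limma adjusted p = 0.263), from 699.5 and 309 in the ILS mice against 328 and 243 in the ISS mice. Its mean rests on ILS mouse 48, and the strains overlapped. Sh2d5 had a log2 fold change of 0.33, Camk2n1, an inhibitor of CaM kinase II, of -0.22 and Otud3, a deubiquitinase, of -0.02. None of the 6 neighbours passed. None of the 3 nearest measured genes on either side of the other 6 listed genes passed either, at 43 probe sets in all.

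**Figure D4:**
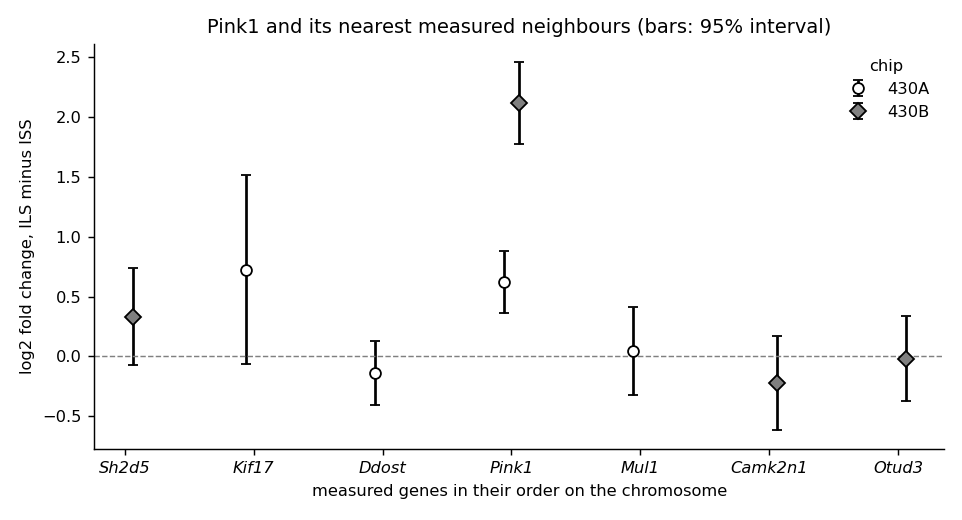
Log2 fold change (ILS minus ISS, with 95% intervals) of Pink1 and of the 3 nearest genes with a tested probe set on each side, in chromosomal order, open circles for 430A and grey diamonds for 430B. Pink1 stands at 0.62 and 2.11, and of the neighbours Kif17 is highest, at 0.72 with the widest interval.

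The probe sets whose values over the 4 mice were most like those of Pink1, by root mean square distance of centred log2 intensities, were those of Dcn, Bzw1, Mark1, Edil3 and Ccng2 on 430A, at distances of 0.014 to 0.029. On 430B they were those of Rbm45, Pi4kb, Nr3c2, Cthrc1 and Fam126b, at 0.168 to 0.278. The measure uses 4 arrays of a chip, so it mostly ranks probe sets by the size of their strain difference.

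The rest of the pathway was followed through 11 lists with 183 genes other than the members, each gene at its brightest tested probe set. On 430A 138 of them were measured and 3 passed, 1 higher and 2 lower in ILS, which is 2.17% against 2.93% of all tested probe sets. At an unadjusted p under 0.05 there were 23, or 16.7%, against 21.8% of all tested probe sets of 430A. On 430B 56 were measured and none passed in limma, with 4 (7.14%) at an unadjusted p under 0.05, against 9.02% of all tested. Counts at an unadjusted p below are to be read against these shares. The median log2 fold change was -0.03 on 430A and 0.01 on 430B. With array medians made equal, which shifts every log2 fold change on 430A by -0.16, 10 of the 138 (7.25%) passed, 1 higher and 9 lower in ILS, against 10.2% of all tested probe sets, of which 19.3% were higher in ILS. In that setting Pink1 on 430A stood at 0.47.

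Among 24 measured genes of the PINK1 pathway on 430A none passed in the limma fit, 2 had an unadjusted p under 0.05 and 14 were lower in ILS, with a median of -0.04. Those 2 encode receptors of the mitochondrial import machinery through which PINK1 enters. Tomm20 had intensities of 4376 and 3360 in the ILS mice, against 2882 and 2702 in the ISS mice (0.46 ± 0.14, SE, limma adjusted p = 0.115). The strains did not overlap at this probe set, while the probe set of Tomm20 on 430B stood at 0.07. Tomm70a stood at 0.46 on the log2 scale (limma adjusted p = 0.14). On 430B none of 8 passed and none had an unadjusted p under 0.05, with the deubiquitinase Usp15 at -0.19. The autophagy adaptor Tax1bp1 had 329 and 271 in the ILS mice, against 243 and 169 in the ISS mice, both below their array medians. With the ISS arrays set at their medians, the measured signal was at least 1.26-fold higher in ILS (limma adjusted p = 0.7). The interval of its log2 fold change, from -0.21 to 1.32, held both signs. At its brightest probe set on 430A Tax1bp1 stood at -0.005, and the strains overlapped.

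Of 10 measured mitophagy receptors and related factors on 430A, Nipsnap2 rose in ILS. NIPSNAP proteins sit in mitochondria and bind autophagy adaptors when the organelle is damaged. Nipsnap2 had intensities of 567 and 731 in the ILS mice, against 326 and 342 in the ISS mice, with no overlap. The difference was 0.95 ± 0.17 on the log2 scale (SE, limma adjusted p = 0.0301), and the call was lost without ILS mouse 51 (0.76) and with no filter on dim probe sets. The other 9 did not pass, 3 of the 10 had an unadjusted p under 0.05, and the median of the list was 0.10. On 430B none of 4 passed, with 1 at an unadjusted p under 0.05, the hypoxia-linked receptor Fundc1 at 0.37 ± 0.15 (SE). The inner membrane prohibitin Phb2 stood at -0.26 there. Fundc1 and Phb2 had the opposite signs on 430A, at -0.19 and 0.38, and the strains did not overlap at either.

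No gene of fission and fusion passed at its brightest probe set, among 12 measured on 430A (median -0.02, none at an unadjusted p under 0.05) and 6 on 430B (median 0.03, 1 such). Mff, a receptor for the fission GTPase, stood at 0.19 and Gdap1 at -0.21 on 430A, and Opa3 at 0.45 and the fission factor Fis1 at 0.24 on 430B. Dnm2, a dynamin with 7 probe sets on 430A, stood at -0.13 at its brightest, where the strains overlapped. A dimmer one, named after its values were seen, rose at least 1.74-fold in ILS (limma adjusted p = 0.0379). Its remaining probe sets are not given here. The mitochondrial protease list, which holds proteases and scaffolds of several mitochondrial compartments, had 10 of 13 measured genes lower in ILS on 430A, a median of -0.17 and none past the threshold. The processing peptidase subunit Pmpcb stood at -0.56 ± 0.15 (SE, limma adjusted p = 0.0825) and the membrane scaffold Stoml2 at -0.46 ± 0.15 (adjusted p = 0.139), these being the 2 with an unadjusted p under 0.05. On 430B none of 3 passed or had an unadjusted p under 0.05, with Clpx at -0.26 and Afg3l2 at -0.11.

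Among 31 measured genes of the autophagosome and lysosome on 430A none passed in limma, 7 (22.6%) had an unadjusted p under 0.05, close to the 21.8% of the chip, and the median was -0.13. Uvrag, a partner of Beclin 1, came closest, with intensities of 431 and 419 in the ILS mice against 771 and 626 in the ISS mice (-0.71 ± 0.15, SE, limma adjusted p = 0.0527). Atg13, of the kinase complex that starts autophagy, stood at -0.48 ± 0.14 (SE, adjusted p = 0.109). Both strains' values were apart at these genes. On 430B none of 10 passed or had an unadjusted p under 0.05, with the protease Atg4b at -0.45 and Gabarapl2 at -0.26.

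Of 11 other measured Parkinson-related genes on 430A, Mapt fell in ILS. Mapt encodes tau, a microtubule-binding protein of axons. It had intensities of 2696 and 2773 in the ILS mice, against 3787 and 4020.0 in the ISS mice, a difference of -0.51 ± 0.10 on the log2 scale (SE, limma adjusted p = 0.0438). Other Mapt probe sets stood at -0.55 and 0.15 on 430A and at -0.07 on 430B and did not pass, and the call was lost with quantile normalization, with no filter, without the intensity trend, with adjustment over both chips and without any 1 of the mice, at -0.49 without ILS mouse 48, -0.53 without ILS mouse 51, -0.56 without ISS mouse 55 and -0.47 without ISS mouse 56. The other 10 did not pass. On 430B none of 8 passed, with 1 at an unadjusted p under 0.05, Dnajc6, an auxilin of clathrin uncoating, at 0.31, while Dnajc13 stood at -0.43.

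In the hypoxia list, taken because Bnip3 is a target of hypoxia-inducible factors, Hk2 was lower in ILS on 430A and 11 other measured genes did not pass (median of the 12, -0.17). Hexokinase 2 phosphorylates glucose and binds the outer mitochondrial membrane. Hk2 had intensities of 203 and 200.2 in the ILS mice, both below the medians of their arrays, against 373 in each ISS mouse, so that it was at least 1.6-fold higher in ISS (limma adjusted p = 0.0355). The call was lost with no filter and without any 1 of the 4 mice (limma adjusted p from 0.0522 to 0.108). On 430B none of 5 passed or had an unadjusted p under 0.05, the oxygen-sensitive factor Epas1 stood at 0.15 and the peptide gene Adm at 0.18, and the median of 0.13 had the opposite sign to that on 430A.

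None of 12 measured genes of mitochondrial biogenesis passed on 430A (2 at an unadjusted p under 0.05, median -0.03) and none of 5 on 430B (1 such, median -0.18). The mitochondrial transcription factor Tfb2m stood at 0.69 ± 0.17 (SE, limma adjusted p = 0.0701) and the coactivator Ppargc1a at 0.49 ± 0.17 (adjusted p = 0.149), and on 430B the nuclear factor Nrf1 stood at -0.55 and Ssbp1 at 0.30. Of Rab proteins that LRRK2 can phosphorylate, none of 9 passed on 430A (1 at an unadjusted p under 0.05, median 0.14) and none of 5 on 430B (no such gene, median 0.05). Rab3b stood at 0.73 ± 0.31 (SE) and Rab8b at 0.29 on 430A, and Rab35 at -0.28 and Rab3c at 0.16 on 430B. Rab3b had 493 and 536 in the ILS mice, against 454 and 211 in the ISS mice, so its difference rests mostly on ISS mouse 56.

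FBXO7 partners gave 3 measured genes on 430A and 1 on 430B, none past the threshold or at an unadjusted p under 0.05, with the cullin Cul1 at -0.29, the proteasome inhibitor Psmf1 at 0.47 and Cdk6 at 0.12. The strains overlapped at Psmf1 and at Cdk6. The list of inhibitors of apoptosis, which HTRA2 cleaves, and of the apoptosome had 5 measured genes on 430A and 1 on 430B, and none passed. Cytochrome c (Cycs) stood at 0.38 ± 0.10 (SE, limma adjusted p = 0.0791) and Birc6 at 0.58 ± 0.18 (adjusted p = 0.116) on 430A, the 2 with an unadjusted p under 0.05, and Cycs stood at -0.06 on 430B.

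**Figure D5:**
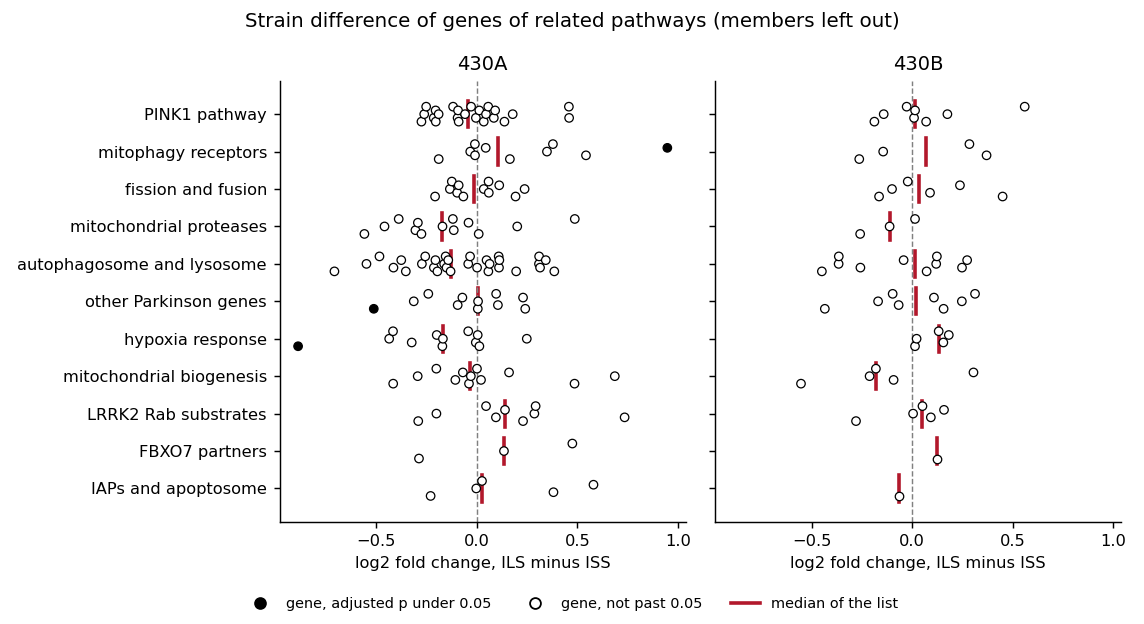
Log2 fold change (ILS minus ISS, horizontal axes) of each measured gene of the 11 lists at its brightest tested probe set on 430A (left) and 430B (right), filled where the adjusted p was under 0.05, with a red line at the median of each list. Nipsnap2 at 0.95, Mapt at -0.51 and Hk2, drawn at its measured value although dim in ILS (at least 1.6-fold higher in ISS), are the filled points, all on 430A, and the list medians lie between -0.18 and 0.14.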

How the data were processed

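The deposited values are intensities on a linear scale. The submitters' processing notes name MAS5, with no version stated. Each array came with a 2% trimmed mean near 500. The tables hold no detection calls. The experiment records deposited with each array are of unit other, and per the file headers they give chip type, station and scan time.

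The 64 control probe sets were removed, and intensities were set to that trimmed mean and taken to log2. Of the rest, those at or above the median mean of their chip were tested with limma 3.58.1 (R 4.3.3), each chip apart (intensity trend, 2 residual degrees of freedom, two-sided), with Benjamini-Hochberg adjustment over the chip. The replicates are separate mice, and their number limits the precision. A strain with both values below their array medians was taken as dim, and a fold against it is a lower bound on the measured ratio. Such a bound does not take in the error between mice. The fit was tested on simulated data. The members and lists were chosen with earlier results of these data known. All 183 list genes were found in the RefSeq gene table, and each list's genes were named by rule: up to 4 that passed, or else the 2 with the smallest p. Dnm2 was named outside this rule. The 3 nearest measured neighbours of Pink1 on each side and the 5 genes most like it per chip were also named. Alternatives were other scalings, a pseudocount at the 20th percentile, other filters, variance models and adjustment, leaving out each mouse, and station as a block.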

Additional observations from a re-analysis of the deposited data

How the results depend on the processing

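All 8 tested member values kept their sign in all 104 recomputed values, and 7 moved by more than the spread within strains, each on 430A with equal medians or quantile normalization. With a mouse left out, log2 fold changes that did not pass ranged from 0.05 to 0.47 for Park7 1456194_a_at, -0.35 to -0.21 for Park7 1416526_a_at, -0.28 to -0.09 for Lrrk2, -0.35 to -0.10 for Htra2, -0.36 to -0.17 for Fbxo7 and -0.24 to -0.21 for Bnip3. The number of member probe sets called on 430A, 1 as reported, was 0 when dim probe sets were kept and 0 when the variance had no intensity trend. It was 0 to 0 when any 1 mouse was left out. On 430B it was 0 without the trend, where 4 probe sets of the whole chip were called, and 1 in every other setting run. The number of list genes called on 430A, 3 as reported, was 10 with equal medians, 0 with no filter (25 at an unadjusted p under 0.05), 1 with the filter at the 75th percentile, where 89 were measured, and 1 to 6 when a mouse was left out, the highest without ISS mouse 55, where all 6 (4.35%) were higher in ILS, against 5.86% called of all tested probe sets, 63% of them higher in ILS. On 430B it was 0 in every setting run. Apart from the filters, which change how many probe sets are tested, the causes were not tested. A mouse left out leaves a lone array, assumed to vary like the others. No paired analysis was possible because the strains share no replicate numbers. Without detection calls, dim probe sets such as those of Htra2 have no measured floor.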
